A study of Mus musculus with 53 samples.

Results

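Expression of 9 genes of glycolysis was followed across mouse intestine with activated BRAF, loss of the TGFβ receptor ALK5 or loss of APC. The genes were Slc2a1, Hk1, Hk2, Pfkp, Aldoa, Pgk1, Eno1, Pkm and Ldha, chosen by symbol from the 55421 genes of the count table. Their symbols matched 10 rows, as a second identifier named Aldoa, ENSMUSG00000114515, held 1 to 44 reads per library and was not used. All 9 genes passed the filter on low counts. Gapdh, which belongs to the same pathway, was left out because its reads are shared with the processed copy Gm13394.

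The RNA came from 53 libraries of whole tissue or tumour in 11 groups, and every mouse, WT included, carried the tamoxifen-inducible VilCreER transgene and received tamoxifen. Villin drives this Cre in the intestinal epithelium, so muscle, stroma and immune cells of the same piece of tissue were not recombined. Proximal colon came from WT mice (n = 3), from primary tumours of BrafV600E/+ Alk5fl/fl mice (BA, n = 4) and, on day 30 after induction, from WT (n = 4), BA (n = 5), Alk5fl/fl (A, n = 4), antibiotic-treated BA (n = 5) and sulindac-treated A mice (n = 4). Antibiotics were ampicillin, neomycin trisulphate and metronidazole at 1 g/L and vancomycin at 500 mg/L in the drinking water, from the day after tamoxifen. Sulindac was given in the same way at 0.4 g/L for 14 days. Small intestine came from WT (n = 6) and Apcfl/fl mice (n = 10) on day 4, from WT mice (n = 3) and from tumours of Apcfl/+ mice (n = 5). The last 2 groups were labelled as inbred C57BL6/J and all others as mixed C57BL/6J N6.

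Glycolysis splits glucose into pyruvate in the cytosol and yields ATP without oxygen. Tumours and dividing cells commonly run it fast even where oxygen is present and turn the pyruvate into lactate. Many of its genes are known targets of HIF1, the transcription factor of low oxygen, and of MYC. In the gut, enterocytes also absorb sugars and make glucose, with partly different enzymes from those listed here.

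GLUT1, made from Slc2a1, carries glucose into the cell, and the hexokinases of Hk1 and Hk2 trap it by phosphorylation. The platelet-type phosphofructokinase of Pfkp commits the sugar to the pathway and aldolase A of Aldoa splits it. Phosphoglycerate kinase (Pgk1) and pyruvate kinase (Pkm) make ATP, with enolase 1 (Eno1) between them, and lactate dehydrogenase A (Ldha) converts pyruvate to lactate.

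In GRCm38 the 9 genes lie on 7 chromosomes, and each span is that of the annotated gene. Slc2a1 (ENSMUSG00000028645) is at chr4:119108711-119137983 and Eno1 (ENSMUSG00000063524) at chr4:150236721-150248879, Aldoa (ENSMUSG00000030695) at chr7:126795234-126800751 and Ldha (ENSMUSG00000063229) at chr7:46841475-46855627. Hk1 (ENSMUSG00000037012) is at chr10:62268855-62379908, Hk2 (ENSMUSG00000000628) at chr6:82725025-82774454 and Pfkp (ENSMUSG00000021196) at chr13:6579768-6648777. Pgk1 (ENSMUSG00000062070) is at chrX:106187100-106203699 and Pkm (ENSMUSG00000032294) at chr9:59656368-59679375. The HIF heterodimer binds ACGTG or GCGTG and MYC with MAX binds CACGTG, so these letters were searched on both strands of the 250 bases before the annotated starts (RefSeq, GRCm38.p6). The 9 genes had 16 promoters. ACGTG was found in 7 of these, before 6 of the 9 genes, and in 16.6% of all 32851 promoters. GCGTG was found in 7 of 16, before 5 genes, and in 28.2% of all, and CACGTG, which contains ACGTG, in 1, before Ldha, and in 6.02% of all. Some of the 16 promoters overlap, so the same ACGTG is counted in more than 1 Aldoa promoter. The same holds for GCGTG in Eno1. The shares of all are per promoter, not per gene, and were not matched for GC content. The promoter of Pfkp and 1 promoter of Hk1 hold 3 GCGTG each and are not shown. Capitals below mark ACGTG or its reverse complement CACGT, and CACGTG where both strands match. The 3 promoters with more than 1 ACGTG are shown, and GCGTG is not in them. They are those of Ldha on chr7:46845554-46845803 (+ strand), Pgk1 on chrX:106186850-106187099 (+ strand) and Hk2 on chr6:82774455-82774704 (- strand).
Ldha: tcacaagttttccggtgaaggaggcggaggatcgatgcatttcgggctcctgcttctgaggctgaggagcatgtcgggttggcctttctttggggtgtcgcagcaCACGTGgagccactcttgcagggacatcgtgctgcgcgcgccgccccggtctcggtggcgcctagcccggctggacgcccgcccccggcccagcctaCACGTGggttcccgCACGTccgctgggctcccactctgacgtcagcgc
Pgk1: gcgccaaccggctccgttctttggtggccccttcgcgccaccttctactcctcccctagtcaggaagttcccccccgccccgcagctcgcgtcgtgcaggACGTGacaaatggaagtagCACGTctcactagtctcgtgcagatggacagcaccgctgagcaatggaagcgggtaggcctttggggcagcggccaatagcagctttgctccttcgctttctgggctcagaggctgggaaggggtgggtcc
Hk2: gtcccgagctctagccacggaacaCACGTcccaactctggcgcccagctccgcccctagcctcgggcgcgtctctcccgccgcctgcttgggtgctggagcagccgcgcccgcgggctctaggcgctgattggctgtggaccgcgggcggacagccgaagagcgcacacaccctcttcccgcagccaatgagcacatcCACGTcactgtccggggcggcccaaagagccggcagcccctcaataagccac
A match describes the letters of a promoter and shows no binding.

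Libraries held 516985 to 32824795 reads on genes, with a median of 18356939. The lowest was replicate 1 of Apcfl/fl day 4, and the next lowest held 10005066. The fewest reads on a member were 6, for Hk1. Levels are given as normalised CPM, read counts relative to library size after TMM scaling over all 53 libraries. Some marker genes went against the tissue label of Apcfl/+ tumour 2. Car1, a carbonic anhydrase of colonocytes, was at 167 normalised CPM there and at 0.0683 to 0.58 in the other 4 tumours. It was at 11830 to 23870 in WT proximal colon. The colonic markers Car4 (11.6) and Aqp8 (27.2) were also highest in tumour 2, Mettl7b and Muc2 lay within the other tumours, and Slc26a3 (34.6) was lowest. Apoa4, an enterocyte apolipoprotein, was at 5.02 against 1251 to 3233. In BA tumour 2 the lactase gene Lct was at 167 normalised CPM and Apoa4 at 313.5, against 10.5 or less for Apoa4 in the other 3. Colonic markers remained in BA tumour 2, with Car1 at 1044 against 3136 to 5024 in the other 3, and Muc2 at 5643. The calls of members are therefore also given without these libraries where they change, whereas the counts and sums over gene lists include them. Gene counts of Apc and Tgfbr1 (Alk5) sum reads from deleted and kept parts and do not check the genotypes: Apc was at 36.5 to 146.9 normalised CPM in Apcfl/fl mice and 64.5 to 111 in WT mice on day 4. The 36.5 was that of Apcfl/fl replicate 8, and every other Apcfl/fl mouse had 110.8 or more. In whole tissue, fewer cells of a type and less RNA per cell cannot be told apart.

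The 9 genes differed widely in how much they varied over the intestine. Slc2a1 had the widest range of group means, from 14.8 ± 2.81 normalised CPM (SD, n = 3) in WT small intestine to 829 ± 115 (SD, n = 5) in day 30 BA colon, a ratio of 56.0. Hk1 came next, with a ratio of 15.8 between day 30 BA colon (330 ± 18.0) and Apcfl/fl small intestine on day 4 (20.8 ± 12.6). The ratios were 6.63 for Hk2, 5.29 for Pgk1, 4.55 for Aldoa, 3.65 for Pfkp, 3.34 for Eno1, 2.52 for Pkm and 2.39 for Ldha. Day 30 BA colon had the highest group mean of Slc2a1, Hk1, Aldoa and Ldha, and Apcfl/+ tumours that of Pgk1, Eno1 and Pkm. Hk2 was highest in BA tumours and Pfkp in WT small intestine on day 4. When the 11 groups were ordered by mean, neighbours overlapped in 8 of 10 pairs for Slc2a1 and Hk1, in 9 of 10 for Hk2, Pfkp and Ldha and in all 10 for the other 4 genes. For Slc2a1 the gaps without overlap lay between antibiotic-treated BA and sulindac-treated A colon, and between A colon and Apcfl/+ tumours. For Hk1 they lay between antibiotic-treated BA and sulindac-treated A colon, and between Apcfl/+ tumours and WT small intestine on day 4.

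**Figure D1:**
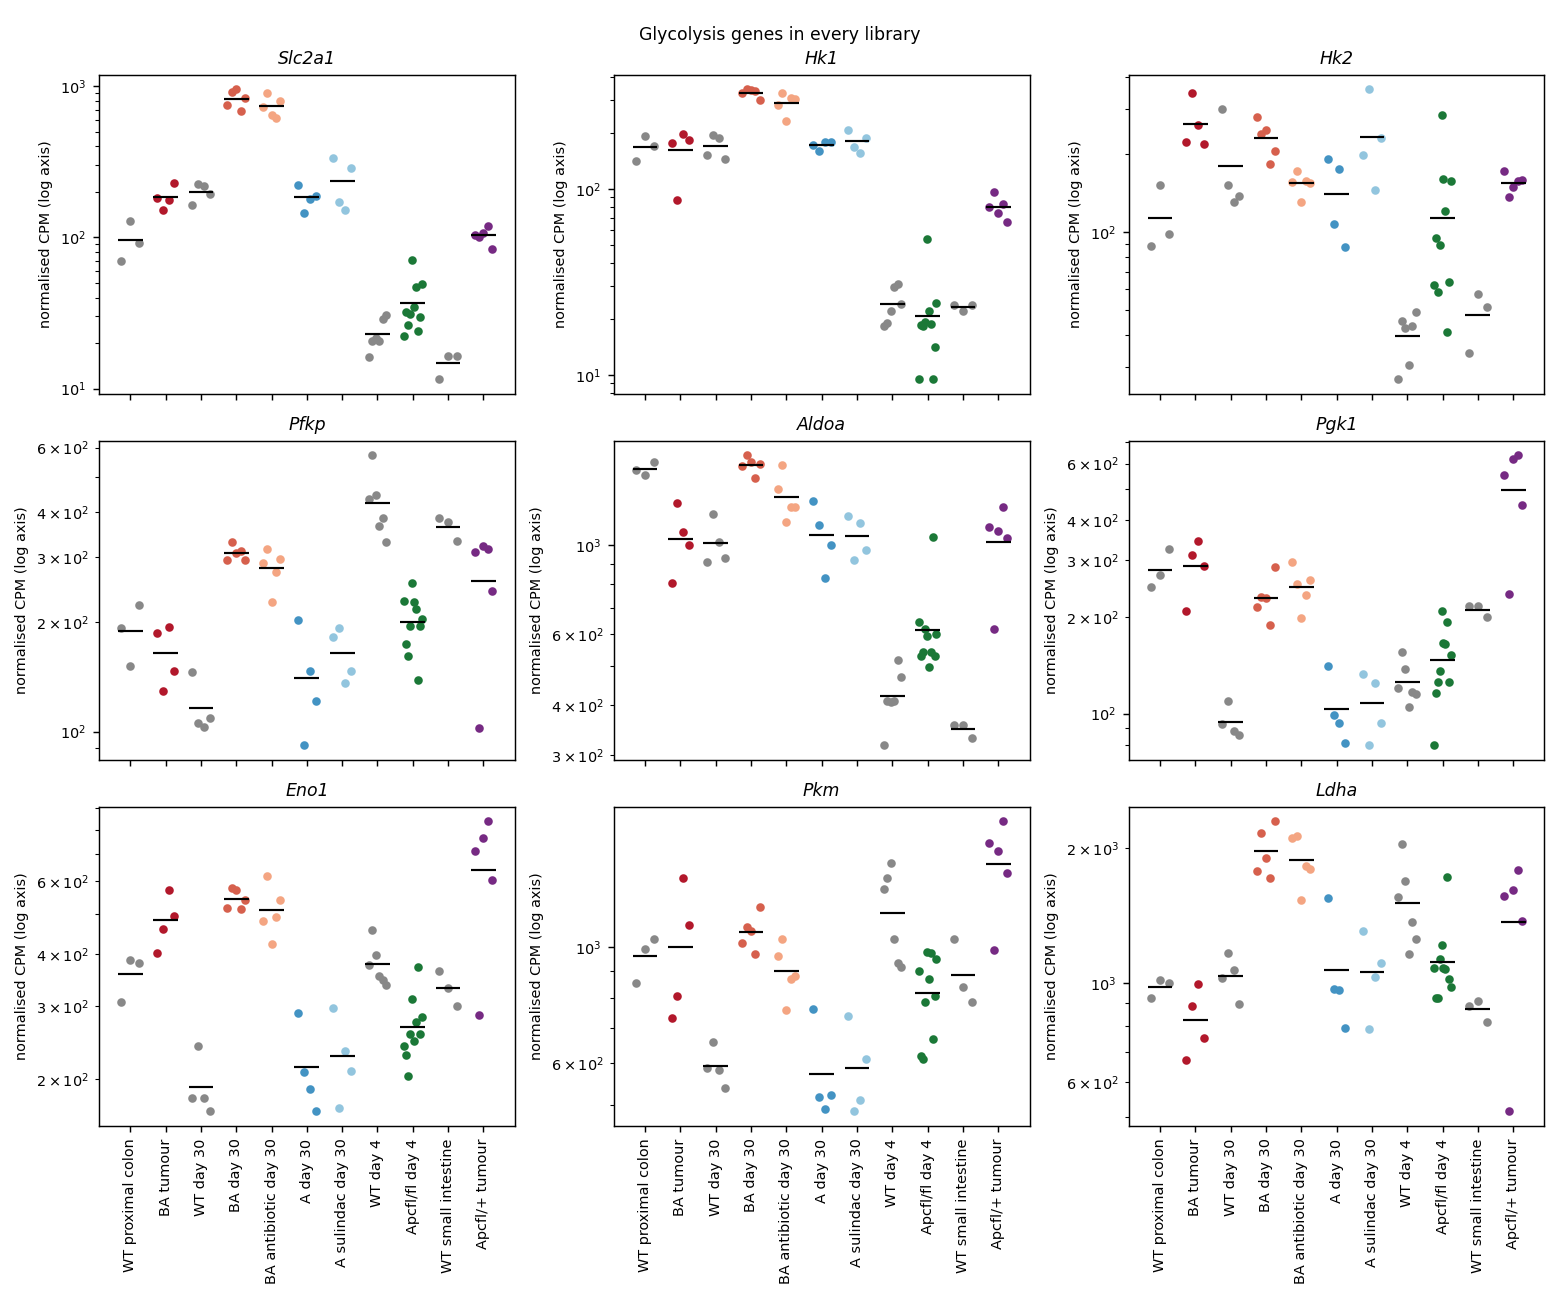
Normalised CPM (log axis) of the 9 glycolysis genes in each of the 53 libraries, by group. Points are libraries and bars group means. Day 30 BA and antibiotic-treated BA colon stand above all other groups for Slc2a1 and Hk1, while neighbouring groups overlap for most genes.

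Per kilobase of exon, Aldoa or Ldha was the highest of the 9 genes in every group. In WT proximal colon, mean levels per kilobase were 533 CPM for Aldoa and 296 for Ldha, and in day 30 BA colon 596 for Ldha and 545 for Aldoa. Pfkp was lowest per kilobase in all groups of proximal colon (8.64 to 23.0) and Hk1 in all groups of small intestine (2.44 to 9.39).

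Pgk1, Eno1 and Pkm share much of their sequence with near-identical gene copies, and the share of reads on these copies differed between 2 sets of libraries. Of their 36-base words, the length of the sequenced reads, 54.5% for Pgk1, 31.8% for Pkm and 27.9% for Eno1 also occur in other annotated genes, against 16.5% for Ldha, 13.5% for Aldoa, 5.23% for Pfkp and under 2% for Slc2a1, Hk1 and Hk2. Gm6560, the gene that shares most with Pkm, held 1.15 to 1.65% as many reads as Pkm in the 15 libraries of the tumour groups and their WT and 9.38 to 11.9% in the 38 libraries of day 4 and day 30. Pgk1-rs7 held 0.409 to 0.615% of the reads of Pgk1 in the first set and 1.45 to 3.16% in the second, and Eno1b 0.327 to 0.637% and 1.29 to 11.3% of those of Eno1. The 2 sets therefore did not overlap for any of these 3 copies. WT colon differed between the sets as well: Pgk1 was 2.98 times higher in WT proximal colon than in WT day 30 colon, Eno1 1.87, Pfkp 1.63, Pkm 1.62 and Aldoa 1.53 times, and Slc2a1 0.482 times as high, each without overlap. In small intestine, Pgk1 was 1.69 times as high in WT small intestine as in WT mice of day 4 and Ldha 0.577 times, without overlap. The other 7 genes overlapped there, Pfkp at 0.861, Aldoa at 0.826, Eno1 at 0.876 and Pkm at 0.762 times. The cause was not tested, and set and time of sampling cannot be told apart. The order of groups above spans both sets, whereas each fold change below is within 1 set. No 36-base word of the 9 genes occurs in Gm13394, with which Gapdh shares 20.8%.

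On day 30, 8 of the 9 genes were higher in BA than in WT proximal colon, and Slc2a1 led them at 4.09-fold. Slc2a1 was at 749, 918, 959.9, 683 and 833 normalised CPM in the 5 BA mice and at 164, 226, 219 and 195 in the 4 WT mice. All 5 BA mice lay far above the highest WT mouse, and the log2 fold change was 2.03 (SE 0.13, Benjamini-Hochberg adjusted p = 3.7e-07, edgeR's quasi-likelihood test, which is two-sided). The groups did not overlap for any of the 8 genes called. Of all 17471 genes tested, 25.8% were called higher and 22.5% were higher without overlap.

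Of the hexokinases, which act after glucose entry, Hk1 passed the test and Hk2 did not. Hk1, the hexokinase of most tissues, was at 327, 345, 341, 336 and 299.8 normalised CPM in BA and at 153, 196, 188.5 and 146 in WT mice (log2 fold change 0.94, SE 0.10, edgeR adjusted p = 1.8e-05). Hk2, the isoform induced by insulin and low oxygen, was at 279.7, 239.8, 248, 184 and 206 normalised CPM in BA mice. In WT mice it was at 299.6, 153, 131 and 138, so replicate 1 stood above all 5 BA mice while the other 3 lay below them. The log2 fold change of Hk2 was 0.35 (SE 0.23, edgeR adjusted p = 0.21), and without WT replicate 1 it was 0.70 (adjusted p = 0.0012).

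Of the middle enzymes, Pfkp rose most. It was at 295, 330.3, 308, 312 and 295 normalised CPM in BA mice and at 146, 106, 103 and 109 in their WT controls. The log2 fold change was 1.40 (SE 0.10, edgeR adjusted p = 9.3e-07). The BA values lay within a narrow band, well above the highest WT value. Aldoa changed least of the 8, from 1014 ± 133 to 1586 ± 73.4 normalised CPM (SD; log2 fold change 0.63, SE 0.09, edgeR adjusted p = 0.00014).

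The genes of the later steps rose by log2 fold changes of 1.49 for Eno1 (SE 0.11), 1.27 for Pgk1 (SE 0.12), 0.91 for Ldha (SE 0.10) and 0.84 for Pkm (SE 0.08), with edgeR adjusted p-values between 9.3e-07 and 2.9e-05. Ldha was at 1780, 2162, 1906, 1712 and 2298 normalised CPM in BA mice and at 1027, 1164, 1066 and 895 in WT mice. All 5 BA mice thus lay above the highest WT mouse for lactate dehydrogenase A. Pgk1 went from 94.2 ± 10.8 to 229.6 ± 35.6 normalised CPM (SD) and Eno1 from 192 ± 33.3 to 546 ± 30.0.

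**Figure D2:**
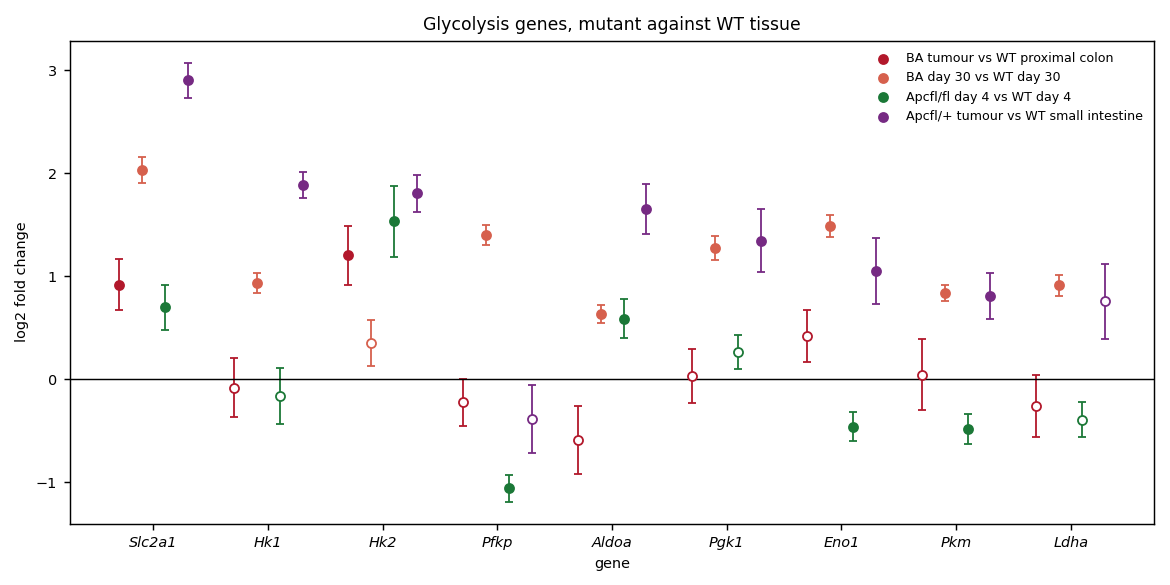
Log2 fold change of the 9 glycolysis genes against the WT tissue of the same site and set, in 4 mutant groups. Points are edgeR estimates, bars 1 SE, and filled points have an adjusted p under 0.05. Slc2a1 is the gene with a filled point above 0 in all 4 comparisons, while Pfkp runs from 1.40 in day 30 BA colon to -1.06 in Apcfl/fl small intestine.

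Other enzymes of the pathway went in both directions. Of all genes tested in BA against WT colon on day 30, 25.8% were called higher, and the share called lower is not given here. Of 16 other glycolytic enzymes and isoforms tested on day 30, 6 were higher and 7 lower in BA colon, with a median log2 fold change of -0.02 against -0.03 over all genes tested. Hkdc1, a further hexokinase, had a log2 fold change of -1.62, the muscle isoforms Pfkm and Eno3 -1.56 and -2.16 and the heart-type lactate dehydrogenase Ldhb -1.09, whereas the triose phosphate isomerase Tpi1 and the mutase Pgam1 had 0.56 and 0.68. Of 10 genes of gluconeogenesis, fructose use and sugar absorption, 2 were higher and 7 lower (median -0.65). The glucose carrier of the brush border, Slc5a1, had -1.02. Of 14 regulators and genes of pyruvate or lactate fate, 4 were higher and 7 lower (median -0.14), and Slc16a3, which exports lactate, had the value of 3.47 (SE 0.18, edgeR adjusted p = 1.1e-07). Of 10 hypoxia-inducible genes outside glycolysis, 8 were higher (median 0.80), among them the prolyl hydroxylase Egln3 (2.40), Ndrg1 (1.56) and Bnip3 (1.49), while Car9, a classical marker of low oxygen, was at 0.03. Of 6 transcription factors, 3 were higher: Hif1a at 2.18, Myc at 0.84 and its partner Max.

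Marker genes of other cell types and of the epithelium differed between the groups on day 30 as well. The summed level of 10 epithelial markers was 21240 to 25210 normalised CPM in BA and 10820 to 12940 in WT mice, and 8 of the 10 were called higher. Of 6 markers of colonic epithelium 0 were higher and 4 lower, with sums of 27860 to 30500 in BA and 26030 to 31970 in WT mice. The sum of 8 smooth muscle markers was 991 to 4118 in BA and 5093 to 5906 in WT mice, that of 10 stromal markers 1078 to 1351 against 1438 to 1782, and that of 10 immune markers 171 to 253 against 212 to 289.7. Of 8 neutrophil markers 6 were too low to be tested, with S100a8 at 0.247 normalised CPM or less and Mpo at 0 in all 5 BA mice. Ly6g alone was called higher, at 324 to 523 in BA and 0.0524 to 0.316 in WT mice. The part of this composition in the change of the 9 genes was not tested. Gm13394, the Gapdh copy, was over 10 CPM in 5 of 5 BA and 0 of 4 WT mice.

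Antibiotics left 8 of the 9 genes higher than in WT colon. In antibiotic-treated BA mice the 8 genes called were also called in untreated BA mice, against 21.8% of 17569 genes tested called higher. Slc2a1 was at 728, 909, 645, 620.4 and 800.0 normalised CPM, all above the WT range, a log2 fold change against WT of 1.89 (SE 0.14, edgeR adjusted p = 4.7e-06). The other values ran from 1.42 for Eno1, 1.40 for Pgk1 and 1.28 for Pfkp over 0.86 for Ldha, 0.77 for Hk1 and 0.61 for Pkm to 0.38 for Aldoa (adjusted p = 0.022). Aldoa overlapped WT and kept its call in 2 of the 9 fits that left out 1 library, with 0.29 to 0.48 over these fits. Hk2 had a log2 fold change of -0.22 (edgeR adjusted p = 0.46), and 0.13 without WT replicate 1. The epithelial sum was 18660 to 29060 normalised CPM in these mice and the smooth muscle sum 1715 to 5808, which overlapped WT. Without overlap, 7 of the 9 genes were higher, as were 17.4% of genes tested. Both comparisons share the 4 WT mice.

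Against untreated BA colon, Hk2 alone among the 9 genes was called with antibiotics in edgeR's 2-group fit. Hk2 was at 157, 173, 131, 158 and 155 normalised CPM with antibiotics and at 184 or more in every untreated BA mouse, so the groups did not overlap. Its log2 fold change was -0.58 (SE 0.11, edgeR adjusted p = 0.0059), where 8.50% of 16680 genes tested were called lower and 7.37% were lower without overlap. The call depended on the fit: with all day 30 groups in 1 fit, Hk2 had -0.59 and did not pass (adjusted p = 0.157). Aldoa had -0.26 (adjusted p = 0.058) and Pkm -0.24 (adjusted p = 0.062) with overlap, and both passed without antibiotic replicate 2, at -0.33 and -0.30. Slc2a1 had -0.16, Hk1 -0.18, Pfkp -0.13, Eno1 -0.09, Ldha -0.07 and Pgk1 0.11. Of 16 other glycolytic enzymes 4 were lower, Hkdc1 among them at -1.02, and of the transcription factors Hif1a (-0.32) and Myc (-0.38). The lactate exporter Slc16a3 had -0.55. The stromal sum was 7580 normalised CPM in antibiotic replicate 3 and 1159 to 1637 in the other 4.

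Loss of ALK5 without BRAF activation gave 0 calls among the 9 genes by edgeR's quasi-likelihood test, with 0 at an unadjusted p under 0.05 and 0 by DESeq2 or limma voom. A gene without a call is not shown to be unchanged. Of 17713 genes tested 0.141% were called, and 1717 had an unadjusted p under 0.05. Slc2a1 was at 222, 146, 181 and 187 normalised CPM in A mice, within reach of the 164 to 226 of WT mice. The largest log2 fold changes were -0.35 for Hk2 (SE 0.31) and 0.29 for Pfkp (SE 0.22), and the other 7 lay between -0.12 and 0.16. The hypoxia-inducible list had a median of -0.03. Gm13394 was over 10 CPM in 4 of 4 A mice, as in BA mice.

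Sulindac, an inhibitor of cyclooxygenases, gave 0 calls among the 9 genes against WT colon (0.0507% of 17742 genes called) and 0 against untreated A colon (0.0% of 17568 called) by edgeR, DESeq2 and limma voom. At an unadjusted p under 0.05, 1 gene passed in each: Pfkp against WT, at 0.51 (edgeR adjusted p = 0.44), and Hk2 against A, at 0.75 (adjusted p = 1.00). Of all genes tested, 1607 of 17742 passed that unadjusted level against WT and 460 of 17568 against A. Hk2 was at 199.7, 359, 146 and 231 normalised CPM with sulindac and at 191, 108, 175.5 and 87.7 without. Slc2a1 was at 334, 172, 151 and 287 with sulindac, so that 2 of the 4 mice lay above all A and WT mice. Its log2 fold change against A was 0.38 (SE 0.27).

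Between the genotypes that differ in BRAF, all 9 genes were higher in BA than in A colon on day 30, where 21.7% of 17128 genes tested were called higher. Slc2a1 was 4.56-fold higher (log2 fold change 2.19, SE 0.15, edgeR adjusted p = 2.0e-06), and the next were Eno1 at 1.37, Pgk1 at 1.17 and Pfkp at 1.15. Hk1 and Pkm had 0.95 and 0.92, Ldha 0.90 and Aldoa 0.60. Hk2, at 0.74 (SE 0.22, adjusted p = 0.018), was the gene whose groups overlapped, at 184 to 279.7 against 87.7 to 191 normalised CPM, while 18.1% of genes were higher without overlap. All 9 calls were kept in each fit that left out 1 library. Of the hypoxia-inducible list 9 of 10 were higher (median 0.99, against -0.06 over all genes), Car9 among them at 0.94. The epithelial sum was 10110 to 18860 normalised CPM in A mice, below all BA mice, and the smooth muscle sum was 3791 to 7009. Whether the difference in the 9 genes follows the epithelial share was not tested.

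**Figure D3:**
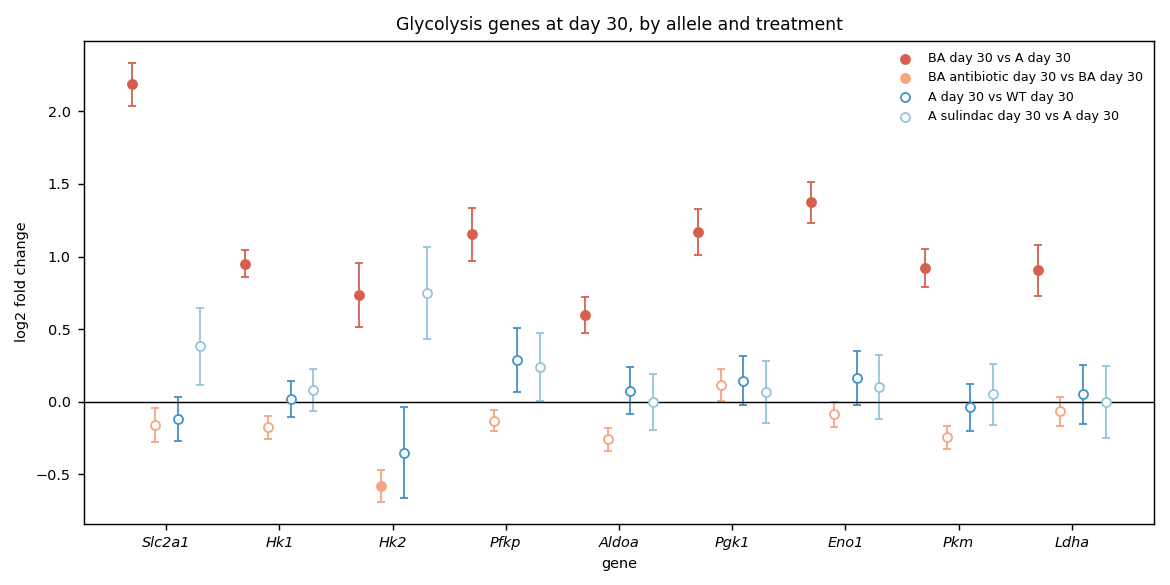
Log2 fold change of the 9 glycolysis genes in 4 comparisons of day 30 proximal colon (points, edgeR estimates; bars, 1 SE; filled, adjusted p under 0.05). All 9 points of BA against A are filled and above 0. Of the other 3 comparisons, Hk2 with antibiotics is the filled point, at -0.58.

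**Figure D4:**
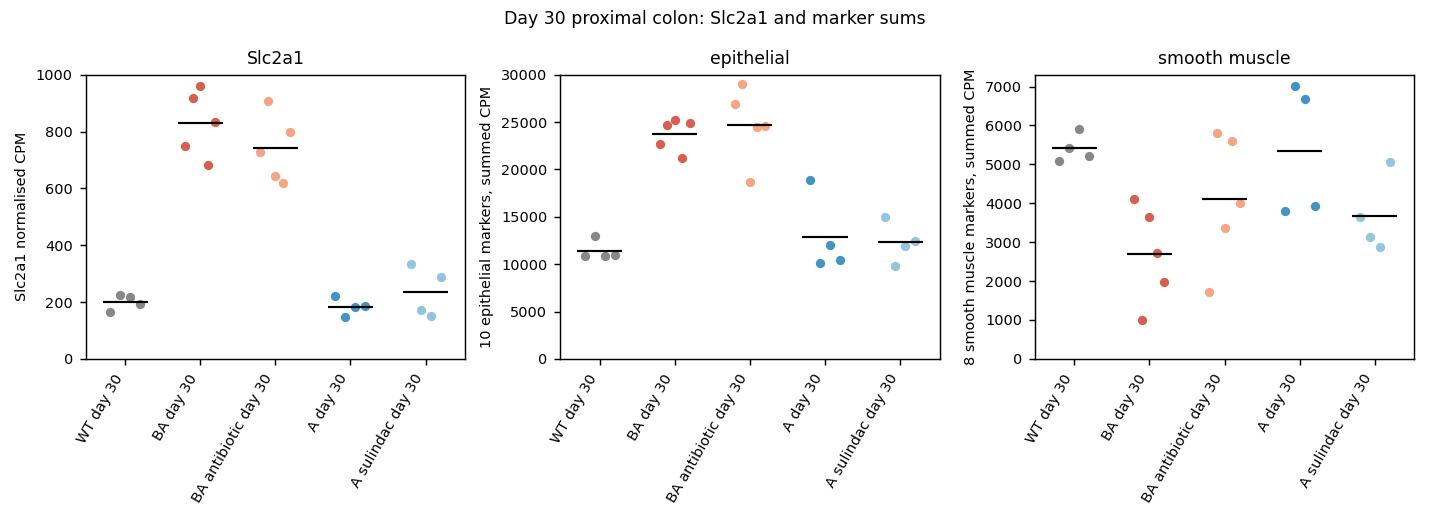
Normalised CPM of Slc2a1 beside the summed normalised CPM of 10 epithelial and 8 smooth muscle markers in day 30 colon. Points are mice and bars group means. Both BA groups lie above the others for Slc2a1, and their epithelial sums are the highest apart from overlap of 1 antibiotic-treated with 1 A mouse.

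In endpoint BA tumours, Slc2a1 and Hk2 were higher than in WT proximal colon, 2 of the 9 genes, where 7.46% of 19188 genes tested were called higher. Slc2a1 was at 183, 153, 176 and 229.9 normalised CPM in tumours 1 to 4 and at 70.4, 128.5 and 91.5 in WT mice (log2 fold change 0.92, SE 0.25, edgeR adjusted p = 0.043). Hk2 was at 224, 346, 259.7 and 220.0 in tumours and 88.1, 153 and 98.3 in WT mice (1.21, SE 0.28, adjusted p = 0.026). Tumours lay above WT for both genes, as they did for Eno1, which did not pass (0.42, adjusted p = 0.33), where 14.6% of genes were higher without overlap. The calls rest on few libraries: over the 7 fits without 1 library 0 to 2 genes were called, and without tumour 3, WT replicate 1 or WT replicate 3 the count was 0. Without tumour 2, Slc2a1 and Hk2 kept their calls, at 0.98 and 1.02.

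The remaining genes showed no call in tumours. In simulated counts with 200 of 18224 genes changed by a log2 fold change of 1, the same kind of fit called 0% of them. In the real data 1431 genes were called higher, and the adjustment is less strict where more genes change. The 0% is thus no measure of the share missed in the real fit. Still, an uncalled gene is not shown to be unchanged. Aldoa was at 804, 1273, 1083 and 999 normalised CPM in tumours and at 1541, 1501 and 1609 in WT mice. All tumours lay below WT for aldolase A, and 12.9% of genes did so, but its log2 fold change of -0.59 did not pass (SE 0.33, edgeR adjusted p = 0.28). Hk1, Pfkp and Ldha had -0.08, -0.23 and -0.26, and Pgk1 and Pkm 0.03 and 0.04, with overlap. Of 16 other glycolytic enzymes 1 was higher, Hk3, a hexokinase of leukocytes, and 4 lower (median -0.30 against 0.03 over all genes). These 4 were Hkdc1 (-2.65), Pfkm (-1.06), Eno3 (-1.79) and Ldhb (-1.42). The share of all genes called lower in BA tumours is not given here. Of 14 regulators 2 were higher, Slc16a3 at 2.13 and Pfkfb3, which makes an activator of phosphofructokinase, at 2.15, and 2 lower, Pdk3 and Pdk4, which restrain pyruvate oxidation (median -0.57). Hif1a (2.23), Epas1 and Myc (1.62) were higher among 6 transcription factors, and 1 of 10 hypoxia-inducible genes, Ddit4, was higher and 1 lower. The stromal sum was 4651 to 5698 normalised CPM in tumours and 1551 to 2549 in WT mice, the immune sum 541 to 1488 against 314 to 362, the neutrophil sum 132 to 494.5 against 3.04 to 5.82, and the epithelial sum 9302 to 14300 against 10320 to 13280. All 6 neutrophil markers tested were called higher, Ly6g among them, and its share of the neutrophil sum is not given here. The part of these cells in the levels of the 9 genes was not tested.

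The BA effect was smaller in tumours than on day 30 for 8 of the 9 genes. The difference of the 2 log2 fold changes was -1.63 for Pfkp, -1.26 for Pgk1, -1.23 for Aldoa, -1.18 for Ldha, -1.12 for Slc2a1, -1.08 for Eno1, -1.02 for Hk1 and -0.81 for Pkm. Each passed an interaction test in edgeR with an adjusted p of 0.039 or less, where 6.46% of 20637 genes tested did so in this direction. Hk2 went the other way, by 0.84 (SE 0.37), and did not pass (adjusted p = 0.13). Between 6 and 8 genes were called when 1 library was left out. Without BA tumour 2 the 8 calls were kept, with differences from -0.66 for Pkm to -1.47 for Pfkp. The 2 effects were measured in libraries of both sets described above, each against its own WT, and WT levels of Pfkp, Aldoa, Pgk1, Eno1 and Pkm were higher and that of Slc2a1 lower in the tumour set.

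Apcfl/+ tumours of the small intestine had 7 of the 9 genes higher than WT small intestine, where 31.4% of 20567 genes tested were called higher. Slc2a1 was at 104.5, 101, 107, 119 and 83.3 normalised CPM in tumours 1 to 5 and at 11.5, 16.5 and 16.4 in WT mice, a 7.48-fold difference (log2 fold change 2.90, SE 0.17, edgeR adjusted p = 1.2e-05). Every tumour lay far above the highest WT mouse. Hk1 was at 80.1, 96.4, 74.4, 82.8 and 66.8 in tumours and 23.8, 22.1 and 23.8 in WT mice (1.89), and Hk2 at 172, 136.5, 149.7, 158 and 158.5 against 33.9, 57.6 and 51.0 (1.81). The 3 genes of glucose entry and trapping thus rose together without overlap. Aldoa followed at 1.65, Pgk1 at 1.35, Eno1 at 1.05 and Pkm at 0.81, with adjusted p-values of 0.019 or less. Eno1 and Pkm overlapped WT, while the other 5 called genes did not, and 26.0% of genes were higher without overlap.

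Pfkp and Ldha did not pass, and tumour 2 was the lowest tumour for both. Pfkp was at 311, 102, 323, 317 and 243 normalised CPM in tumours 1 to 5 and at 385, 374 and 332 in WT mice. All tumours lay below WT, as did 33.2% of genes, with a log2 fold change of -0.38 (SE 0.33, edgeR adjusted p = 0.33). Ldha was at 1564, 515, 1609, 1783 and 1373 in tumours and at 889, 911.5 and 815 in WT mice (0.76, adjusted p = 0.10). Tumour 2, some of whose markers went against its tissue label, was the lowest tumour for 7 of the 9 genes and the highest for Hk1. Without it 8 genes were called, Ldha at 0.97 (adjusted p = 0.00025) joining the 7, and Pfkp was at -0.18. The share of all genes called in the fit without tumour 2 is not given here. The log2 fold changes were then 2.91 for Slc2a1, 1.85 for Hk2, 1.82 for Hk1, 1.79 for Aldoa, 1.53 for Pgk1, 1.24 for Eno1 and 0.92 for Pkm.

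**Figure D5:**
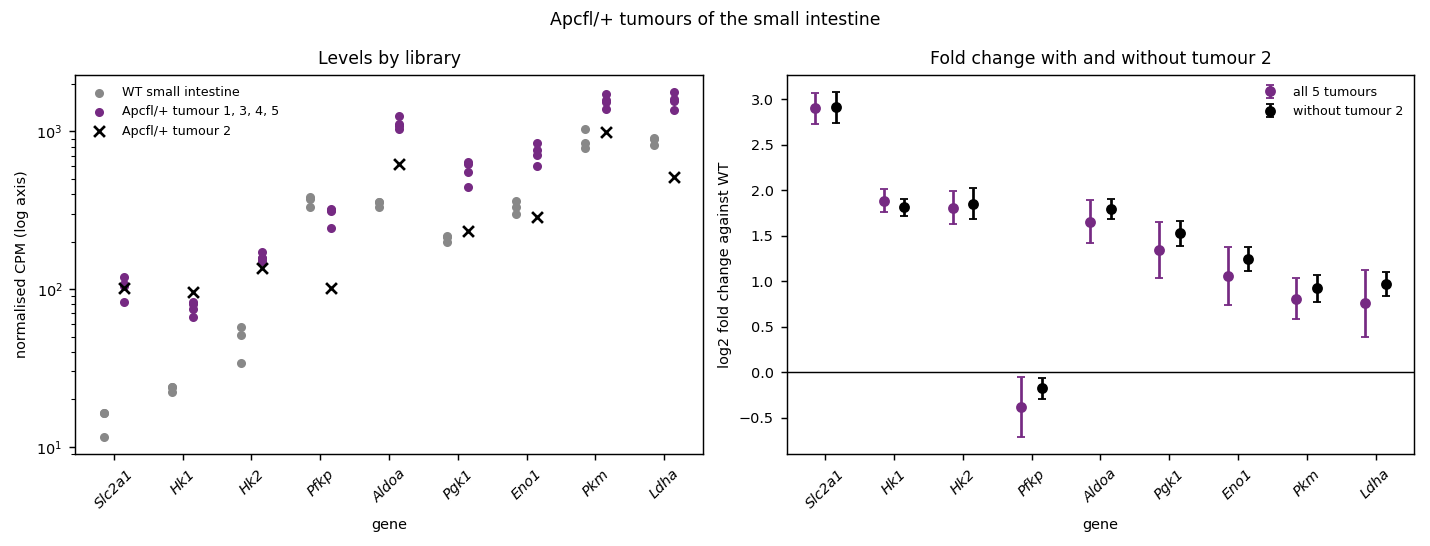
Left, normalised CPM (log axis) of the 9 glycolysis genes in WT small intestine and Apcfl/+ tumours, with tumour 2 as a cross. Right, log2 fold change against WT with all 5 tumours and without tumour 2 (bars, 1 SE). Leaving out tumour 2 narrows the bars for most genes and moves Ldha from 0.76 to 0.97.

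Around the 9 genes, Apcfl/+ tumours had 7 of 17 other glycolytic enzymes higher and 1 lower (median 0.57 against 0.03 over all genes). Of all genes tested 31.4% were called higher, and the share called lower is not given here. Pfkl, the liver-type phosphofructokinase, had a log2 fold change of 2.43, beside the -0.38 of Pfkp. Of the hypoxia-inducible list 9 of 10 were higher (median 1.80), with Bnip3 at 2.39, Car9 at 1.90 and Egln3 at 1.71. Slc16a3 had 2.30 and Pdk1, which keeps pyruvate out of the mitochondrial pathway, 1.44, within 3 higher and 5 lower of 14 regulators. Of 11 genes of gluconeogenesis, fructose use and sugar absorption, 6 were lower and 1 higher (median -1.80), with Slc5a1 at -3.27. Hif1a (1.41), Myc (0.94) and Mycn were higher and Arnt and Max lower. The sum of 6 markers of small intestinal enterocytes was 39.5 to 7185 normalised CPM in tumours and 14600 to 23740 in WT mice, and that of 6 markers of colonic epithelium 891.5 to 1534 against 1932 to 3055. The stromal sum was 3000 to 3698 against 1249 to 1585 and the epithelial sum 6094 to 11850 against 7227 to 8516. Of 5 markers of skeletal muscle and erythrocytes 3 were higher, Hba-a1, Hbb-bs and Alas2, and the sum was 142.6 to 336 against 22.5 to 37.4. The neutrophil sum was 15.6 to 104 against 5.21 to 6.59, with 5 of 6 tested markers higher. Of 10 immune markers 6 were lower and of 8 smooth muscle markers 4. The part of these changes in composition in the 9 genes was not tested. Gm13394 was over 10 CPM in 3 of 3 WT mice and 0 of 5 tumours.

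On day 4 after deletion of both Apc alleles, 3 of the 9 genes were higher and 3 lower, where 27.5% of 17536 genes tested were called higher and 26.7% lower. Slc2a1 was at 22.3 to 71.1 normalised CPM (median 31.5) in 10 Apcfl/fl mice and at 16.2 to 30.6 (median 21.1) in 6 WT mice. The groups overlapped, with a log2 fold change of 0.70 (SE 0.22, edgeR adjusted p = 0.013). Hk2 was at 40.9 to 284 (median 92.1) in Apcfl/fl and 26.9 to 49.1 (median 42.9) in WT mice (1.53, SE 0.34, adjusted p = 0.0012). Of the 10 Apcfl/fl mice, 9 lay above all WT mice for Hk2. Aldoa was at 498 to 1047 (median 569) against 318 to 519 (median 409.7), a log2 fold change of 0.59 (adjusted p = 0.015).

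The genes that fell were Pfkp, Eno1 and Pkm. Pfkp was at 139 to 255 normalised CPM (median 199) in Apcfl/fl and 332 to 572 (median 409.7) in WT mice, and was the 1 gene whose groups did not overlap, where 10.3% of genes were lower without overlap. Its log2 fold change was -1.06 (SE 0.13, edgeR adjusted p = 6.2e-06). Eno1 had -0.46 and Pkm -0.48, with adjusted p-values of 0.0098 and 0.0086. Ldha, at -0.39, and Hk1, at -0.16, did not pass, nor did Pgk1 at 0.27 (adjusted p = 0.18).

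Some of these calls changed with 1 library. Apcfl/fl replicate 8 was the highest mouse for Aldoa (1047 normalised CPM), Eno1 (373) and Ldha (1721). The sum of 5 markers of skeletal muscle and erythrocytes was 177 there and 19.9 to 73.8 in the other 9 Apcfl/fl mice. Cdh1 was at 269.7 normalised CPM against 776 to 1095, Braf at 12.5 against 29.4 to 37.4 and Apc at 36.5 against 110.8 to 146.9. Epcam, at 1354, lay within the other mice. What sets this library apart was not tested. Without it Ldha passed at -0.52 (edgeR adjusted p = 0.0011). Apcfl/fl replicate 5 was the highest for 6 of the 9 genes, Hk1 (54.1) and Hk2 (284) among them, and its stromal sum was 2511 against 409 to 1237 in the others. Without it Hk1 passed as lower, at -0.44 (adjusted p = 0.043). In the mice with Gm13394 over 10 CPM alone, 6 Apcfl/fl and 3 WT, the genes called were Hk2 at 1.72, Pfkp at -0.82 and Pgk1 at 0.58. Slc2a1 (0.65), Aldoa (0.46), Eno1 (-0.24) and Pkm (-0.15) did not pass there. In the mice under 10 CPM Eno1 had -0.76, Pkm -0.83 and Ldha -0.72, all called. The shares of all genes called in these parts of the mice are not given here. With a term for Gm13394 fitted over all mice of day 4, all 9 genes kept their direction and their call or lack of it. Whatever moves Gm13394 was not tested further.

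Genes by which the enterocyte takes up and makes sugars were mostly lower on day 4. Of 11 genes of gluconeogenesis, fructose use and sugar absorption, 9 were lower and 1 higher (median -1.95 against 0.00 over all genes), Slc5a1 at -2.28 among the lower. Of 17 other glycolytic enzymes 10 were lower and 1, Pfkl, higher (median -0.65), with Hkdc1 at -2.12. Of 14 regulators 3 were higher and 5 lower, Slc16a3 at -0.57 among the latter, and of the hypoxia-inducible list 2 were higher and 3 lower, with Ndrg1 at -1.63. Myc had a log2 fold change of 1.93, while Hif1a, at 0.20, did not pass. The sum of 6 enterocyte markers was 3424 to 9456 normalised CPM in Apcfl/fl and 16790 to 28120 in WT mice, and the part of this loss in the lower levels of Pfkp, Eno1 and Pkm was not tested.

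The effect was larger in Apcfl/+ tumours than on day 4 of Apc deletion for 7 of the 9 genes. The differences of log2 fold change were 2.15 for Slc2a1, 1.99 for Hk1, 1.497 for Eno1, 1.27 for Pkm, 1.14 for Ldha, 1.05 for Pgk1 and 1.05 for Aldoa. Each passed an edgeR interaction test with an adjusted p of 0.028 or less, where 12.4% of 22202 genes tested did so in this direction. Hk2 (0.23) and Pfkp (0.66) did not pass, and without tumour 2 Pfkp passed at 0.86. The count was 5 to 8 with 1 library left out. Genotype, time and strain background differ between the 2 comparisons and cannot be told apart.

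Between the tumours of either kind, BA tumours had the lower effect for Aldoa (-2.22), Slc2a1 (-1.95), Hk1 (-1.93) and Pgk1 (-1.29), with edgeR interaction adjusted p-values of 0.0185 or less, where 17.7% of 21668 genes tested passed in this direction. Ldha had -0.99, Pkm -0.74, Eno1 -0.60, Hk2 -0.58 and Pfkp 0.20, none past the threshold. Without BA tumour 2 there were 5 genes called, with Hk2 at -0.83 added. Without Apcfl/+ tumour 2 there were 7, and without the second tumour of both groups 8, Hk2 (-0.88) among them and Pfkp (-0.01) not. The 17.7% is the share in the fit with all libraries, and the shares of these reduced fits are not given here. Tissue and strain background differ between these groups too and cannot be told apart from genotype.

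Across the 53 libraries some pairs of the 9 genes followed one another closely and others did not. Pearson's r of log2 levels was highest between Slc2a1 and Hk1 (0.93), Pgk1 and Eno1 (0.86), Aldoa and Slc2a1 (0.85) and Pkm and Eno1 (0.84), and its median over all 36 pairs was 0.33, from -0.36 to 0.93. For deviations from the group means the median was 0.35. With the mean of the standardised levels of the 9 genes, Eno1 had the highest r (0.84) and Pfkp the lowest (0.37). Of 23478 genes, the non-members with the highest r to this mean were the annexin Anxa5 (0.89), Fer1l4, the keratin Krt8 and the pseudogene Mup-ps23 (0.87 each) and the sterol regulator Insig1 (0.87). The points share tissue, set and epithelial content, so these values describe the libraries and were not tested.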

How the data were processed

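RNA from 53 samples of proximal colon, small intestine or their tumours was sequenced as paired reads of 36 cycles after TruSeq RNA v2 library preparation. The values are counts of reads per gene, which the authors deposited as 1 table. Per the submitters' processing notes and the study's methods, reads were checked with FastQC 0.11.8, trimmed with Trim Galore 0.6.4, aligned to GRCm38 with HISAT2 2.1.0 and counted with featureCounts 1.6.4. How featureCounts handled strand and multi-matching reads is not given in the sources used here. Both bear on Pgk1, Eno1 and Pkm, whose reads other genes share. The table held 0 columns of other samples.

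Groups were taken from the sample labels. Each replicate is a library of 1 labelled sample, and p-values measure the spread between these libraries. Each comparison was fitted on its 2 groups alone with edgeR 4.0.16 (R 4.3.3): filterByExpr, TMM scaling and the two-sided quasi-likelihood test over all genes, with Benjamini-Hochberg adjustment and a threshold of 0.05. The SE was the absolute log2 fold change divided by the square root of F. Differences of 2 effects were interaction terms over 4 groups. Levels are normalised CPM with TMM factors over all 53 libraries, and fold changes come from the fits. Alternatives were RLE scaling, DESeq2 1.42.0, voom in limma 3.58.1, the unfiltered gene table, a block for the replicate number, 1 fit over the day 30 groups and leaving out each library. The fits were tested on simulated counts with 200 genes changed. At a log2 change of 1, 0% of these were called for BA tumours against WT and 15.5% for Apcfl/+ tumours against WT. In the other comparisons it was 30 to 75%. At a log2 change of 2 the values were 57%, 78.5% and 90 to 93.5%. More genes than 200 were called in the real fits of both tumour kinds, so these shares need not hold there.

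All 9 genes were tested in each comparison, and where none was called only some are named with values. Lists of other glycolytic enzymes, gluconeogenesis and sugar absorption, regulators, hypoxia-inducible genes and transcription factors, and markers of epithelial, smooth muscle, stromal, immune, neutrophil, enterocyte, colonic, skeletal muscle and erythrocyte cells, are given as counts or sums. The genes and lists were chosen with earlier results of these data known. Shared 36-base words were counted between annotated transcripts (GENCODE M21), and exon length is the union of annotated exons. Promoters came from RefSeq (GRCm38.p6), which held at least 1 for all 9 genes. Python 3.11.15 was used with pandas 2.3.3.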

Additional observations from a re-analysis of the deposited data

Results flagged for a closer look

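In 8 of 81 sets of 4 to 10 libraries, 1 library stood apart from the rest of its group by Dixon's 95% criterion, or 9.88%, where chance gives about 1 in 20. Apcfl/fl day 4 replicate 5 stood apart for Hk1, at 54.1 normalised CPM against 9.5 to 24.4 in the other 9 mice, and for Hk2, at 284 against 40.9 to 160.3. Apcfl/fl replicate 8 did so for Aldoa, at 1047 against 498 to 645, and for Ldha, at 1721 against 924 to 1214. Of the WT mice of day 30, replicate 1 stood apart for Hk2, at 299.6 against 131 to 153, and for Pfkp, at 146 against 103 to 109. WT replicate 2 stood apart for Eno1, at 241 against 167 to 179.9, and A replicate 1 for Pkm, at 760.3 against 490.1 to 523.

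Effects differed between comparisons for 19 values by edgeR's interaction test. BA tumours minus Apcfl/+ tumours, each against WT, gave -1.951 for Slc2a1, -1.933 for Hk1, -2.216 for Aldoa and -1.289 for Pgk1 on the log2 scale. BA tumours minus day 30 BA colon gave -1.117 for Slc2a1, -1.017 for Hk1, -1.626 for Pfkp, -1.233 for Aldoa, -1.255 for Pgk1, -1.084 for Eno1, -0.8084 for Pkm and -1.184 for Ldha. Apcfl/+ tumours minus Apcfl/fl day 4 gave 2.153 for Slc2a1, 1.991 for Hk1, 1.046 for Aldoa, 1.053 for Pgk1, 1.497 for Eno1, 1.274 for Pkm and 1.138 for Ldha. Comparisons that come from the tumour set and the day 4 or day 30 set also differ in the share of reads counted to gene copies.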

How the results depend on the processing

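Of 337 values for called members under other settings, 322 kept their direction and call, 15 lost the call and 0 turned. Of 329 values for uncalled members, 296 kept direction and side, 16 gained a call and 17 turned without a call. The count of 2 genes called in BA tumours became 1 in the same libraries without the replicate term and 0 with the replicate block (Slc2a1 0.83, Hk2 1.29), and 0 to 2 with 1 library left out. In no comparison did same-numbered libraries correlate above 0.1 in every pair (-0.428 to 0.221), so the numbers were not taken as pairs. In Apcfl/+ tumours Eno1 and Pkm lost their calls with the block (0.83 and 0.73) and also in the same libraries without it (0.94 and 0.74). The 6 genes called on day 4 became 3 in the libraries with Gm13394 over 10 CPM, 2 of them (Hk2, Pfkp) among the 6 and Pgk1 not, a setting chosen after seeing the data. The 1 gene called for antibiotics within BA became 3 by DESeq2, 2 by limma voom, 0 with all day 30 groups in 1 fit and 1 to 3 with 1 library left out. The 4 genes of the tumour difference became 4 to 7 with 1 library left out and 8 without tumour 2 of both groups, which was also chosen after seeing the data. A term for Gm13394 could be fitted on day 4 alone, where all 9 genes kept their direction and their call or lack of it. It was not run elsewhere, because no other comparison held libraries of both kinds in both groups. Library-total scaling moved 93 of 99 group means by less than 1 SD.

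The uncalled values that turned passed no test on either side, and the cause was not tested. In BA tumours Pkm was at -0.014 by limma voom, and with the replicate block Pkm was at -0.069 and Pgk1 at -0.0077. On day 4 Hk1 was at 0.061 in the libraries of the block fit without its term and 0.020 without Apcfl/fl replicates 1 and 8, and Pgk1 at -0.17 in the libraries under 10 CPM of Gm13394. For sulindac against WT, Pkm was at 0.0047 with RLE scaling and 0.00029 by DESeq2. For sulindac against A, Aldoa and Ldha were at 0.0038 and 0.0018 with RLE scaling, 0.0030 and 0.00081 by DESeq2, 0.0080 and 0.013 by limma voom, and 0.010 and 0.018 with the replicate block. The tumour difference of Pfkp was -0.014 without tumour 2 of both groups.

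With 1 library left out, further uncalled log2 values crossed 0. In BA tumours these ran from -0.211 to 0.107 for Hk1, -0.0823 to 0.180 for Pgk1 and -0.156 to 0.189 for Pkm, and with antibiotics against WT from -0.368 to 0.133 for Hk2. In A against WT colon they ran from -0.0484 to 0.0902 for Hk1, -0.536 to 0.00886 for Hk2, -0.0319 to 0.178 for Aldoa, -0.0394 to 0.245 for Pgk1, -0.0189 to 0.290 for Eno1, -0.206 to 0.0296 for Pkm and -0.183 to 0.173 for Ldha. With sulindac against WT they ran from -0.129 to 0.0829 for Pkm and -0.0763 to 0.161 for Ldha. With sulindac against A they ran from -0.00584 to 0.161 for Hk1, -0.103 to 0.103 for Aldoa, -0.0654 to 0.247 for Pgk1, -0.0666 to 0.281 for Eno1, -0.0939 to 0.213 for Pkm and -0.134 to 0.229 for Ldha. The tumour difference of Pfkp ran from -0.126 to 0.304.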
